A study of Caenorhabditis elegans with 32 samples.

Results

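This account covers 82 protein-coding genes of Caenorhabditis elegans whose small RNAs were higher in pptr-1 mutant gonads than in wild-type gonads, while long-term meg-3;meg-4 mutants showed no such gain. The genes were chosen by their measured levels in CPM, the count of a gene scaled to a fixed sum over all gene rows of a library. A gene had to reach 10 CPM on average in untreated pptr-1 gonads and 2 times the untreated wild-type mean of the same experiment. It also had to reach 2 times the F6 wild-type mean in F6 pptr-1 gonads. It had to stay under 1.5 times wild type in the first 2 long-term meg libraries, and under 2 times wild type in wild-type F2 animals of the cross with a mutant mother. Of 19725 protein-coding genes, 6312 reached 10 CPM in untreated pptr-1 gonads, and 82 met all thresholds. Among the 6312, 3.68% reached the untreated and 5.07% the F6 fold threshold. The gains in pptr-1 mutants and the lack of a gain in long-term meg mutants are therefore how the genes were picked, and they are given as a description with no test.

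Small RNA was sequenced from dissected gonads of worms grown at 20 °C on E. coli OP-50, in 32 libraries of 11 groups. Every group carried the germline reporter Pmex-5::gfp::h2b::tbb-2 (mjIs134 on chromosome II, as the wild-type and pptr-1 labels give it), in which the mex-5 promoter drives a green fluorescent histone in germ cells. RNA was extracted with TRIZOL, a phenol reagent, from untreated pptr-1(tm3103) mutants (strain BFF39, 3 libraries), from F6 pptr-1(tm3103) descendants of animals given gfp double-stranded RNA (2), from F6 wild-type descendants of animals given the same RNA (3), and from untreated wild type (strain SX1263, 3). The untreated pptr-1 library titles carry the name SX1263 while their strain field gives BFF39. RNA was extracted with the miRNeasy column kit from meg-3(tm4259);meg-4(ax2026) double mutants and their relatives, 3 libraries a group. These were the long-term mutant strain BFF40, kept for over 80 generations, and F15 mutants descended from wild-type hermaphrodites mated to mutant males. They also included mutant F2 and wild-type F2 animals of the reverse mating, with a mutant hermaphrodite and a wild-type male, here called the maternal cross. Mutant F2 and wild-type F2 animals of the mating that gave the F15 are called the paternal cross, and wild type was strain SX1263. Each mutant genotype was a single strain or its cross progeny, and the labels do not say whether libraries of a group came from separate cultures, so spreads and p-values cover the libraries as sequenced.

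C. elegans germ cells make small RNAs that are complementary to messenger RNAs, by copying those transcripts with RNA-dependent RNA polymerases. Argonaute proteins bind these small RNAs and silence or license the matching genes, and some of the small RNAs pass to the offspring. Much of this machinery sits in P granules and neighbouring germ granules at the nuclear envelope. MEG-3 and MEG-4 are disordered proteins that build the P granule scaffold in embryos, and PPTR-1 is a regulatory subunit of protein phosphatase 2A needed to keep P granules together during the first embryonic divisions. A level given here is the number of small RNA reads assigned to a gene, and it is not the level of that gene's messenger RNA.

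The counts per library ran from 3660141 to 12663545 for phenol and from 2684285 to 14871375 for the column kit, apart from the third long-term meg library with 126214. A count of 3 corresponds to at most 0.820 CPM in the phenol libraries and 1.12 CPM in the other kit libraries, but to 23.8 CPM in that library, and such limits cover counting error only. Ratios for long-term meg mutants below use libraries 1 and 2. Extraction and experiment coincide, so a difference between phenol and kit groups cannot be told apart from the extraction. In dissected gonads, fewer cells of a type and less small RNA per cell cannot be told apart either. The targeted genes had fewer small RNAs in their mutants, which does not measure the transcript. Small RNAs of pptr-1 stood at 19.8 ± 2.57 CPM in untreated pptr-1 gonads and 42.3 ± 8.58 CPM in wild type (SD, n = 3 each), with an edgeR quasi-likelihood log2 fold change of -0.99 (SE 0.17, adjusted p = 0.00528). In F6 they stood at 27.0 ± 2.27 CPM in pptr-1 gonads (SD, n = 2) and 35.4 ± 1.02 CPM in wild type (SD, n = 3), which was not called. In the paternal F2, meg-3 and meg-4 were lower in mutants than in wild type by log2 fold changes of -2.40 (adjusted p = 0.00157) and -2.98 (adjusted p = 0.0140). As markers of germ cells, piRNA genes summed to 504 to 656 CPM in untreated pptr-1 gonads and 897 to 1134 CPM in wild type, and to 718 to 777 CPM in F6 pptr-1 and 626 to 777 CPM in F6 wild type. The untreated groups did not overlap in this sum and the F6 groups did, and its part in the results was not tested. The microRNAs mir-1, mir-124, lsy-6 and lin-4, markers of muscle, neurons and soma, had no counts in any of the 32 libraries, and let-7 was not used here. The germline mir-35 to mir-41 summed to 2.24 to 6.25 CPM in untreated pptr-1 gonads and 3.24 to 5.21 CPM in wild type, so microRNA rows were near empty and do not test the tissue.

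Together the 82 genes took 0.945% to 0.996% of all counts in untreated pptr-1 gonads and 0.305% to 0.355% in untreated wild type. In the F6 experiment they took 1.01% to 1.07% in pptr-1 gonads and 0.248% to 0.351% in wild type. The median gene had a ratio of 2.60 (range 2.00 to 10.2) between untreated pptr-1 and wild type, against 0.921 over all 6312 genes. The median F6 ratio was 2.94 (range 2.09 to 14.8), against 1.09 over all 6312. Every untreated pptr-1 library lay above every untreated wild-type library for 75 of the 82, where 9.47% of the 6312 did so, and for 80 in the F6 experiment, where 33.7% did so. All 5 pptr-1 libraries lay above all 6 wild-type phenol libraries for 72 of the 82, where 5.78% of the 6312 did so. These counts follow from the choice of the genes and show nothing beyond it. F6 pptr-1 gonads were within 2 times the untreated pptr-1 level for 81 of 82 genes, close to the 98.9% among the 6312.

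**Figure D1:**
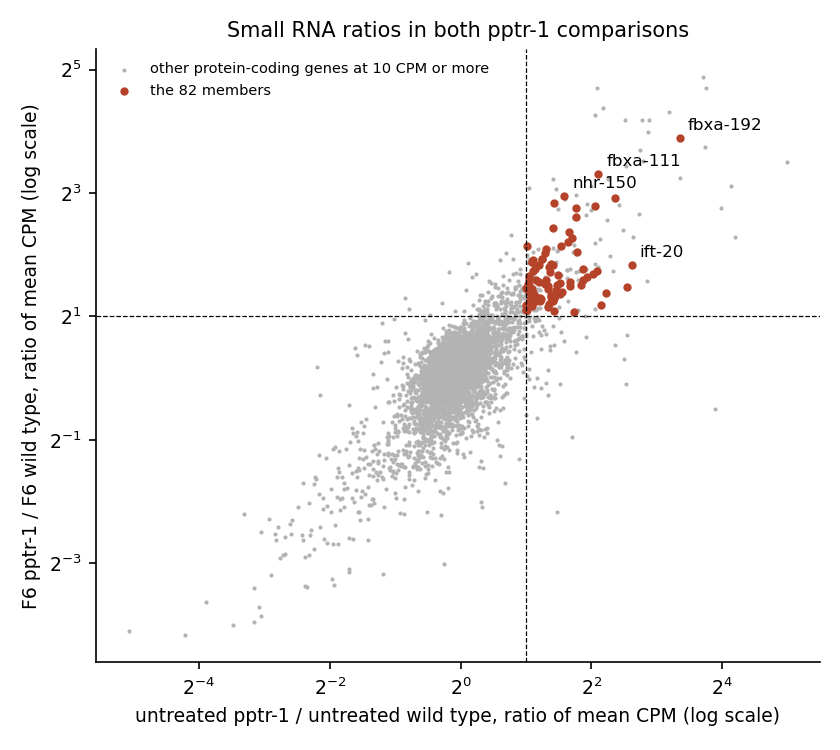
Ratio of mean small RNA level (CPM) in pptr-1 over wild type, untreated on the x axis and F6 on the y axis, both log scales; red points are the 82 genes and grey points the other protein-coding genes at 10 CPM or more. Dashed lines mark the threshold of 2; grey points in the upper right quadrant passed both pptr-1 thresholds and failed a meg or cross threshold, and fbxa-192 has ratios of 10.2 and 14.8.

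The thresholds cut through a continuum. Just inside the level limit were F55D12.2 at 10.9 and ifo-1 at 11.9 CPM, and just outside were atg-2 at 9.46 and vab-8 at 9.42 CPM. Just inside the untreated fold limit were Y47H10A.5 and C50D2.10, with ratios of 2.00 and 2.01, and outside were F19G12.9 at 1.995 and Y87G2A.20 at 1.99. The lowest F6 ratios among the 82 were 2.09 for ZK856.18 and 2.13 for ifd-2, and just outside were tpa-1 and clp-6 at 1.98 each. At the long-term meg limit, his-41 and mppe-1 stood inside at ratios of 1.49 and 1.45, and mrpl-36 and cdk-5 outside at 1.86 and 2.01. At the maternal-cross limit, one of the 2 genes named T26G10.9 (WBGene00206422) and T07F8.1 stood inside at 1.95 and 1.85, and D2024.18 and Y75B8A.10 outside at 2.01 and 2.13. With TMM scaling (edgeR's trimmed mean of M values) of the CPM, 51 genes met the rule, all of them among the 82. When any 1 library was left out, 70 to 103 genes met it, and 31 of the 82 met it whichever library was left out.

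The highest levels among the 82 belonged to genes without a gene symbol and to an F-box gene. Of the 82, 40 have a symbol and 42 only a sequence name, for which no function is given here. Per kilobase of exon, untreated pptr-1 gonads held 1893 CPM for T16G12.4, 1264 CPM for Y102A5C.36, 950 CPM for Y47H10A.5 and 818 CPM for fbxa-192. The median gene had 30.7 CPM per kilobase and the lowest, wdfy-3, had 2.92 CPM per kilobase.

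T16G12.4 lies on chromosome III at 10057818 to 10058684 (WBcel235, plus strand). Untreated pptr-1 gonads held 1768, 1179 and 1369 CPM of its small RNAs, against 432, 370 and 373 CPM in untreated wild type. F6 pptr-1 gonads held 1206 and 1134 CPM, against 379, 441 and 343 CPM in F6 wild type. The pptr-1 libraries were all above the wild-type libraries in both experiments. Y47H10A.5 (chromosome I, 12095482 to 12097987, minus strand) had 1249, 1348 and 1298 CPM in untreated pptr-1 gonads and 550, 909 and 484 CPM in wild type. In the F6 experiment it had 1562 and 1347 CPM in pptr-1 gonads and 153, 929 and 951 CPM in wild type, where the first library was far below the other two. C18D4.6 had 605, 367 and 313 CPM in untreated pptr-1 gonads and 236, 171 and 231 CPM in wild type, without overlap.

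The 82 include 4 genes of the F-box and BTB-MATH families, fbxa-192, fbxa-111, fbxc-50 and bath-19. F-box proteins and BTB-MATH proteins select targets for ubiquitin ligases, and both families are large and fast-changing in C. elegans. fbxa-192 (chromosome V, 17640672 to 17650527, minus strand) had the highest ratios of the 82, with 941, 1122 and 1046 CPM in untreated pptr-1 gonads and 90.0, 101 and 114 CPM in wild type. In the F6 experiment it had 1343 and 1230 CPM in pptr-1 gonads and 74.0, 90.9 and 95.3 CPM in wild type. The lowest pptr-1 library of fbxa-192 was many times the highest wild-type phenol library. fbxa-111, whose exons overlap fbxa-112, had 15.5, 24.7 and 35.5 CPM in untreated pptr-1 gonads and 6.94, 2.76 and 7.92 CPM in wild type. Of the 4, bath-19 had the widest spread within pptr-1, at 67.3, 244 and 135 CPM in untreated gonads against 53.7, 46.3 and 56.0 CPM in wild type. fbxc-50 was even across libraries, at 64.1, 63.0 and 76.1 CPM in untreated pptr-1 gonads and 28.1, 30.7 and 33.5 CPM in wild type.

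Genes of the wider F-box and BTB-MATH families were called in both directions. Of 225 family genes tested, 17 were higher and 7 lower in untreated pptr-1 gonads by edgeR's quasi-likelihood test (Benjamini-Hochberg adjusted p under 0.05), against 4.14% higher and 2.35% lower among all 10873 features. The 4 genes above are among the 17, and 13 of the 221 other family genes were higher. In the F6 experiment 19 were higher, 16 of them outside the 82, and 18 were lower, against 4.06% and 3.68% of all features. The median log2 fold change of the families was 0.08 untreated and -0.21 in F6, against 0.02 and 0.01 over all features. Outside the 82, bath-1 (untreated log2 fold change 1.12, SE 0.16, adjusted p = 0.00158) and fbxa-115 (1.04, SE 0.19, adjusted p = 0.00580) were higher. fbxb-92 (-1.10, SE 0.21, adjusted p = 0.00767) and fbxc-30 (-1.05, SE 0.17, adjusted p = 0.00273) were lower.

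Among chromatin and transcription genes, his-41, which encodes a histone H2B, had 48.6, 51.0 and 67.3 CPM in untreated pptr-1 gonads and 19.5, 8.37 and 11.5 CPM in wild type. Its F6 libraries held 58.7 and 66.0 CPM in pptr-1 gonads and 24.4, 15.5 and 16.1 CPM in wild type, and the groups did not overlap. Its exons overlap C50F4.6, and histone genes are near-identical copies, so the assignment of reads among them is uncertain. Of 58 histone genes tested, 4 were higher and 0 lower in untreated pptr-1 gonads, and 3 were higher and 1 lower in F6. Of all 10873 features, 4.14% were higher and 2.35% lower untreated, and 4.06% and 3.68% in F6. The called histone genes include his-41, chosen for its gain in both, so that 3 of 57 other histone genes were higher untreated and 2 in F6. his-4 was higher in both, by log2 fold changes of 1.20 (SE 0.15, adjusted p = 0.000574) untreated and 1.17 (SE 0.16, adjusted p = 0.00141) in F6. The median log2 fold change over the 58 was 0.43 untreated and 0.40 in F6, against 0.02 and 0.01 over all features. Few single genes passed. Over 58 histone genes in kit libraries, the median was also 0.43 in meg F2 mutants against paternal-cross wild-type F2 siblings. It was 0.40 in maternal-cross against paternal-cross meg F2 mutants, and 0.06 in F15 against F2 mutants. Over all features these kit medians were 0.03, -0.03 and -0.02. nhr-84 and nhr-150 encode nuclear hormone receptors, transcription factors that in worms form a large family. nhr-150 had 9.47, 27.3 and 16.7 CPM in untreated pptr-1 gonads and 2.94, 6.63 and 8.24 CPM in wild type. nhr-84 had 36.2, 102 and 49.1 CPM in untreated pptr-1 gonads and 10.0, 34.9 and 45.4 CPM in wild type, where the groups overlapped. Of 96 receptor genes tested, 5 were higher and 1 lower untreated, and 3 were higher and 1 lower in F6. Outside the 82, 4 of 94 were higher untreated and 2 in F6, near or under the shares of 4.14% and 4.06% over all features. Of the receptor genes outside the 82, nhr-229 was higher by log2 fold changes of 2.80 (SE 0.66, adjusted p = 0.0247) untreated and 3.55 (SE 0.73, adjusted p = 0.0130) in F6. snpc-1.3, a factor for piRNA transcription in male germ cells, had 12.0, 14.7 and 18.6 CPM in untreated pptr-1 gonads and 4.59, 7.50 and 7.19 CPM in wild type.

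The yolk protein genes vit-2 and vit-6 are made in the intestine, and their products are taken up by oocytes. vit-6 had 12.6, 18.8 and 21.9 CPM in untreated pptr-1 gonads and 4.70, 6.87 and 1.46 CPM in wild type. vit-2 had 13.0, 14.9 and 15.5 CPM in untreated pptr-1 gonads and 4.70, 4.90 and 1.77 CPM in wild type. As an intestinal marker list, vit-1 to vit-6 summed to 36.1 to 52.9 CPM in untreated pptr-1 gonads and 6.05 to 23.7 CPM in wild type. In F6 the sum was 41.0 to 60.2 CPM in pptr-1 gonads and 9.86 to 34.1 CPM in wild type. Both sums include vit-2 and vit-6, which were chosen for their gain. Untreated, vit-1, vit-3, vit-4 and vit-5 averaged 2.14, 2.02, 1.68 and 8.44 CPM in pptr-1 gonads. They averaged 1.39, 1.68, 0.971 and 3.86 CPM in untreated wild type. In F6 these averages were 1.54, 2.62, 0.640 and 7.81 CPM in pptr-1 gonads and 1.88, 2.68, 0.926 and 6.73 CPM in wild type. All 6 markers had counts in all 11 phenol libraries, and the part of intestinal RNA in the results was not tested. Without vit-2 and vit-6, the other 80 genes summed to 9427 to 9928 CPM in untreated pptr-1 gonads and 3043 to 3536 CPM in wild type. These 80 were also chosen for their gain, so their sum does not bear on intestinal RNA. Major sperm protein genes, a sperm marker, summed to 4.92 to 22.4 CPM in untreated pptr-1 gonads and 3.53 to 7.72 CPM in wild type, which overlap. In F6 the sperm sum was 6.61 to 9.29 CPM in pptr-1 gonads and 2.03 to 4.28 CPM in wild type, which do not overlap, and its part in the results was not tested.

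The next genes are described singly, in no tested group, and part of them were picked after their values were seen. osm-1 and ift-20 encode parts of the intraflagellar transport machinery of cilia. osm-1 had 17.3, 27.9 and 18.1 CPM in untreated pptr-1 gonads and 7.06, 7.66 and 10.2 CPM in wild type. ift-20 overlaps exons of spe-5 and had 22.4, 12.3 and 8.68 CPM in untreated pptr-1 gonads and 1.88, 2.29 and 2.92 CPM in wild type, a ratio of 6.12. ifd-2, an intermediate filament gene, had 39.7, 23.9 and 29.8 CPM in untreated pptr-1 gonads and 9.05, 14.1 and 11.4 CPM in wild type. ifo-1, which organizes intermediate filaments in the intestine, had 11.5, 13.0 and 11.2 CPM in untreated pptr-1 gonads and 3.17, 4.26 and 6.26 CPM in wild type. cls-3, a gene of the CLASP family of microtubule-binding proteins, had 36.4, 39.5 and 36.7 CPM in untreated pptr-1 gonads and 24.1, 8.61 and 9.38 CPM in wild type. kin-1, the catalytic subunit of protein kinase A, had 59.4, 34.0 and 69.3 CPM in untreated pptr-1 gonads and 16.7, 22.3 and 17.9 CPM in wild type. None of these 6 genes had a wild-type library as high as its lowest pptr-1 library in the untreated experiment. The same held for 75 of the 82, which follows from their choice, and for 9.47% of the 6312. dgn-1, a dystroglycan gene, rpm-1, a ubiquitin ligase of neurons, and unc-83, which anchors nuclei during migration, are also among the 82.

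Libraries of a group differed several-fold for some genes. Y55D5A.1 (chromosome III, 2982409 to 2988150, plus strand, with exons shared with Y55D5A.4) had 34.0, 336 and 176 CPM in untreated pptr-1 gonads and 38.0, 36.6 and 18.8 CPM in wild type. Its first pptr-1 library lay below 2 of the wild-type libraries. F23A7.5 had 70.6, 106 and 103 CPM in untreated pptr-1 gonads and 40.9, 11.2 and 10.8 CPM in wild type, while its F6 libraries held 50.8 and 65.1 CPM in pptr-1 gonads and 60.3, 7.13 and 9.13 CPM in wild type. All F23A7.5 libraries of untreated pptr-1 were above wild type, and the first wild-type library was the high one in both experiments. C07A9.13 had 5.21, 22.2 and 8.84 CPM in untreated pptr-1 gonads and 4.59, 3.87 and 4.59 CPM in wild type, and 18.3 and 5.63 CPM in F6 pptr-1 gonads and 7.63, 1.98 and 3.04 CPM in F6 wild type. pept-3, named as a peptide transporter, had 6.72, 26.6 and 15.3 CPM in untreated pptr-1 gonads and 1.53, 2.84 and 5.11 CPM in wild type. T05B9.2 had 45.8, 80.5 and 62.0 CPM in untreated pptr-1 gonads and 10.7, 13.3 and 16.5 CPM in wild type. In pept-3 and T05B9.2 every untreated pptr-1 library lay above every wild-type library.

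None of the listed genes of the small RNA machinery is among the 82. Only 82 of the 6312 genes at 10 CPM or more were chosen, so short lists could hold none at that share. For the lists below, edgeR called 4.14% of all 10873 features higher and 2.35% lower untreated. In F6 the shares were 4.06% and 3.68%. Of 15 P granule genes tested, 0 were called in either pptr-1 comparison with edgeR, while DESeq2 called 1 untreated and 0 in F6, and 2 had an unadjusted p under 0.05 in each. Of 16 Argonaute genes, 0 were called in either with edgeR, while DESeq2 called 1 untreated and 0 in F6, and 4 untreated and 1 in F6 had an unadjusted p under 0.05. Of 20 amplification genes, rde-11 was higher untreated (log2 fold change 1.01, SE 0.17, adjusted p = 0.00457) and in F6 (1.03, SE 0.19, adjusted p = 0.00779), and rde-2 was lower untreated (-0.45, SE 0.12, adjusted p = 0.0443). Of 10 inheritance genes, sid-1, a channel for double-stranded RNA, was higher untreated (0.61, SE 0.16, adjusted p = 0.0374). The median log2 fold changes untreated were -0.11 for P granule genes, -0.21 for Argonaute genes, -0.10 for amplification genes and 0.00 for inheritance genes. Of 7 phosphatase 2A subunits only pptr-1 itself was called, in the untreated comparison. Of 27 collagen genes 4 were lower and 0 higher in each comparison, and of 95 chemoreceptor genes 0 were higher and 6 lower untreated and 4 higher and 2 lower in F6. Of 39 C-type lectin genes 2 were higher and 1 lower untreated, and 0 were higher and 3 lower in F6. Of 3 major sperm protein genes tested, 0 were called in either comparison by edgeR or DESeq2, and 0 had an unadjusted p under 0.05.

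The 82 genes were spread over the 6 chromosomes with 17 on X. That is 20.7% of the 82, against 5.67% of the 6312 genes at 10 CPM or more. A further 19 lay on V, or 23.2% against 15.7%. The other 4 chromosomes held 10 to 13 of the 82 each. The median exonic length was 1423 bases, against 1549 among the 6312, and 21 of the 82 (25.6%) shared exon positions with another gene, against 28.1%. The 5 pairs of members closer than 50 kb to each other were C16C8.5 with C16C8.12, the 2 genes named T26G10.9, Y102A5C.2 with Y102A5C.36, Y102A5C.36 with fbxa-111, and tap-1 with rbc-1. The T26G10.9 genes lie 515 bases apart on opposite strands, and each has 252 exonic bases. Their untreated pptr-1 levels were 20.3, 17.3 and 16.6 CPM for WBGene00206422 and 18.2, 21.2 and 17.8 CPM for WBGene00206421, which overlap. Whether the 2 genes share reads was not tested.

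**Figure D2:**
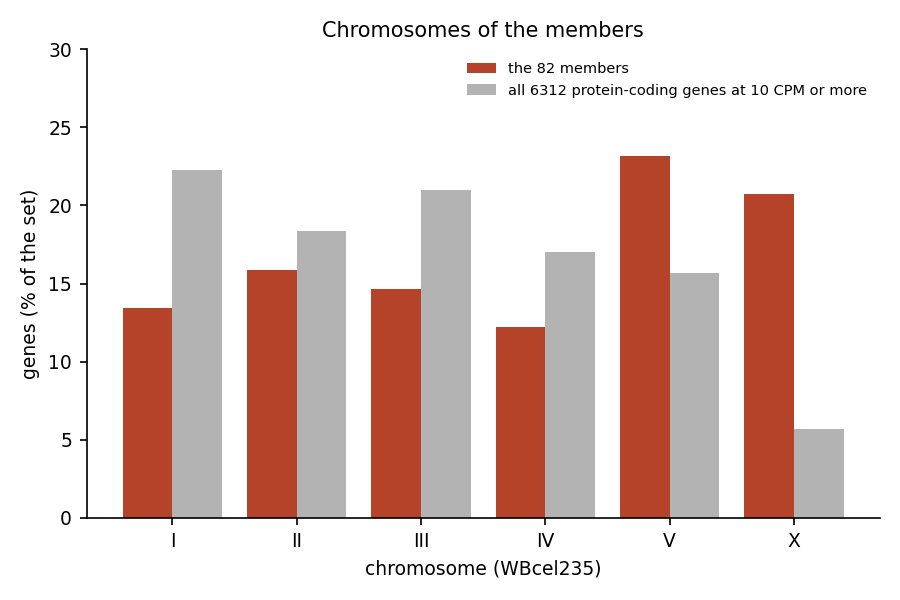
Percent of genes on each chromosome (WBcel235) for the 82 genes (red) and all 6312 protein-coding genes at 10 CPM or more in untreated pptr-1 gonads (grey). Chromosome X holds 20.7% of the 82 and 5.67% of the 6312.

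Long-term meg mutants had these genes under 1.5 times wild type, which the choice required, and 23 of the 82 were above wild type, where 22.2% of the 6312 were. The 82 together took 0.217% to 0.233% of counts in the long-term meg libraries and 0.297% to 0.357% in wild type of the same extraction. The median ratio was 0.703, near the 0.750 over all 6312 genes. At most 0.5 times wild type was reached by 28 of the 82, where 26.4% of the 6312 did so. The deepest losses were in Y55D5A.1, with 2.24, 0.137 and 0 CPM in the 3 long-term libraries and 158, 79.0 and 54.1 CPM in wild type, and in F55D12.2, with 0, 0.685 and 0 CPM in long-term mutants and 7.60, 6.36 and 8.67 CPM in wild type. T07F8.1 had 1.12 and 0.137 CPM in the first 2 long-term libraries and 6.93, 8.37 and 11.2 CPM in wild type. T05B9.2 had 2.24 and 0.822 CPM there and 19.7, 10.2 and 8.94 CPM in wild type.

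Some of the 82 genes were above wild type in meg mutants of fewer generations. In F15 meg mutants, 14 of the 82 averaged at least 2 times wild type, where 2.12% of the 6312 did so, and 15 averaged at most 0.5 times, where 11.6% did so. The 14 include mppe-1, bath-19, E01G4.3, Y102A5C.36, Y102A5C.2, T05G5.1 and fbxa-192. F15 libraries were uneven: the count was 6 without the first F15 library (1.89% of the 6312). It was 9 without the first wild-type library (2.14%) and 18 without the third (2.63%). mppe-1, a metallophosphoesterase gene on chromosome I (10634568 to 10636028, minus strand), had 142, 872 and 159 CPM in F15 mutants and 52.1, 49.7 and 65.8 CPM in wild type. All 3 F15 libraries of mppe-1 were above wild type, with the second far higher. bath-19 had 526, 127 and 72.0 CPM in F15 mutants and 49.4, 45.0 and 56.1 CPM in wild type, led by the first library. T05G5.1 had 670, 111 and 152 CPM in F15 mutants and 103, 144 and 141 CPM in wild type, which overlap. At the other end, C03D6.1 had 1.48, 3.60 and 5.67 CPM in F15 mutants and 38.0, 56.6 and 54.7 CPM in wild type. Y55D5A.1 had 0.123, 0.240 and 0.274 CPM in F15 mutants, all at or under the level of 3 counts.

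**Figure D3:**
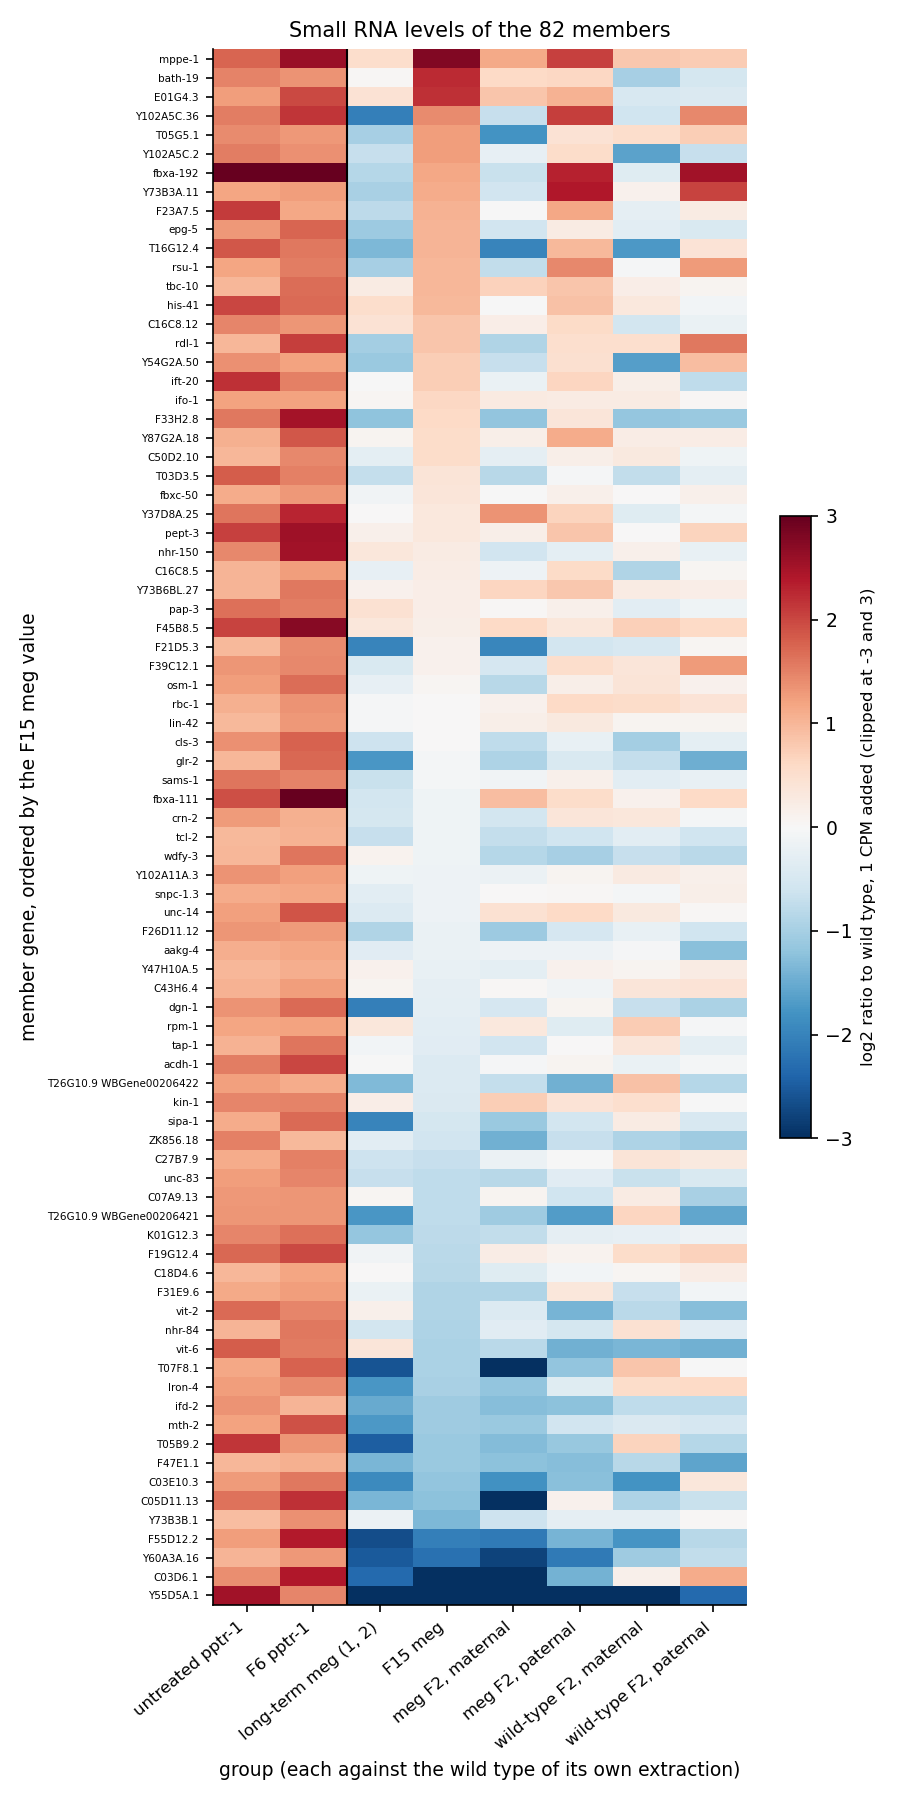
Log2 ratio of mean level to the wild type of the same extraction (1 CPM added to both) for each of the 82 genes (rows) in 8 groups (columns), red above and blue below wild type, clipped at -3 and 3; the black line separates phenol groups on the left from kit groups on the right. Both pptr-1 columns are red throughout by the choice of the genes, and the F15 and mutant paternal-cross columns are red at the top for mppe-1, Y102A5C.36 and fbxa-192 and blue at the bottom for C03D6.1 and Y55D5A.1.

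In the F2 of the paternal cross a part of the group was also above wild type, in mutants and in wild-type siblings. Meg F2 mutants averaged at least 2 times wild type for 10 of the 82, where 2.44% of the 6312 did so. Wild-type F2 siblings did so for 8 of the 82, where 2.71% did so. Without the first kit wild-type library (2.38% of the 6312) the mutant count was 6, and without the first wild-type F2 library (2.04% of the 6312) the sibling count was 4. fbxa-192 had 235, 570 and 535 CPM in meg F2 mutants, 482, 495 and 589 CPM in their wild-type F2 siblings, and 69.8, 85.0 and 114 CPM in kit wild type. Both F2 groups of fbxa-192 lay wholly above kit wild type, and they overlapped each other. Y73B3A.11 had 15.3, 70.0 and 39.5 CPM in meg F2 mutants, 42.8, 27.8 and 24.8 CPM in wild-type F2 siblings, and 4.03, 10.7 and 6.32 CPM in kit wild type. Y102A5C.36 (chromosome V, 16926922 to 16927445, minus strand) had 366, 459 and 436 CPM in meg F2 mutants, 295, 274 and 240 CPM in wild-type F2 siblings, and 70.9, 76.8 and 147 CPM in kit wild type. For Y102A5C.36 the 3 groups did not overlap.

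Neither F2 group of the paternal cross entered the choice of the genes, so the mutant could be tested against its siblings. Among all 10230 features tested, 65 (0.635%) were higher and 168 (1.64%) lower in meg F2 mutants (edgeR quasi-likelihood, adjusted p under 0.05). Of the 82 genes, 0 were called by edgeR and 0 by DESeq2, and 16 had an unadjusted p under 0.05, against 11.3% of all features. The median log2 fold change was 0.13 over the 82 and 0.03 over all features. Samples of the 2 groups with the same replicate number deviated together, so the fit with the number as a block was also made. With the block, 652 features were called, 2.19% of features higher and 4.19% lower, and 6 of the 82 were higher and 2 lower. F33H2.8 was higher by a log2 fold change of 1.91 (SE 0.43, adjusted p = 0.0495) and mppe-1 by 1.29 (SE 0.15, adjusted p = 0.00365). bath-19 (1.18), his-41 (1.05), Y102A5C.36 (0.64) and T16G12.4 (0.61) were the others, with adjusted p from 0.00458 to 0.0384 in edgeR. C03D6.1 was lower by -2.55 (SE 0.14, adjusted p = 0.000495), with 24.1, 10.2 and 20.0 CPM in meg F2 mutants and 164, 55.3 and 108 CPM in wild-type F2 siblings. Y60A3A.16 was lower by -1.46 (SE 0.29, adjusted p = 0.0296).

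**Figure D4:**
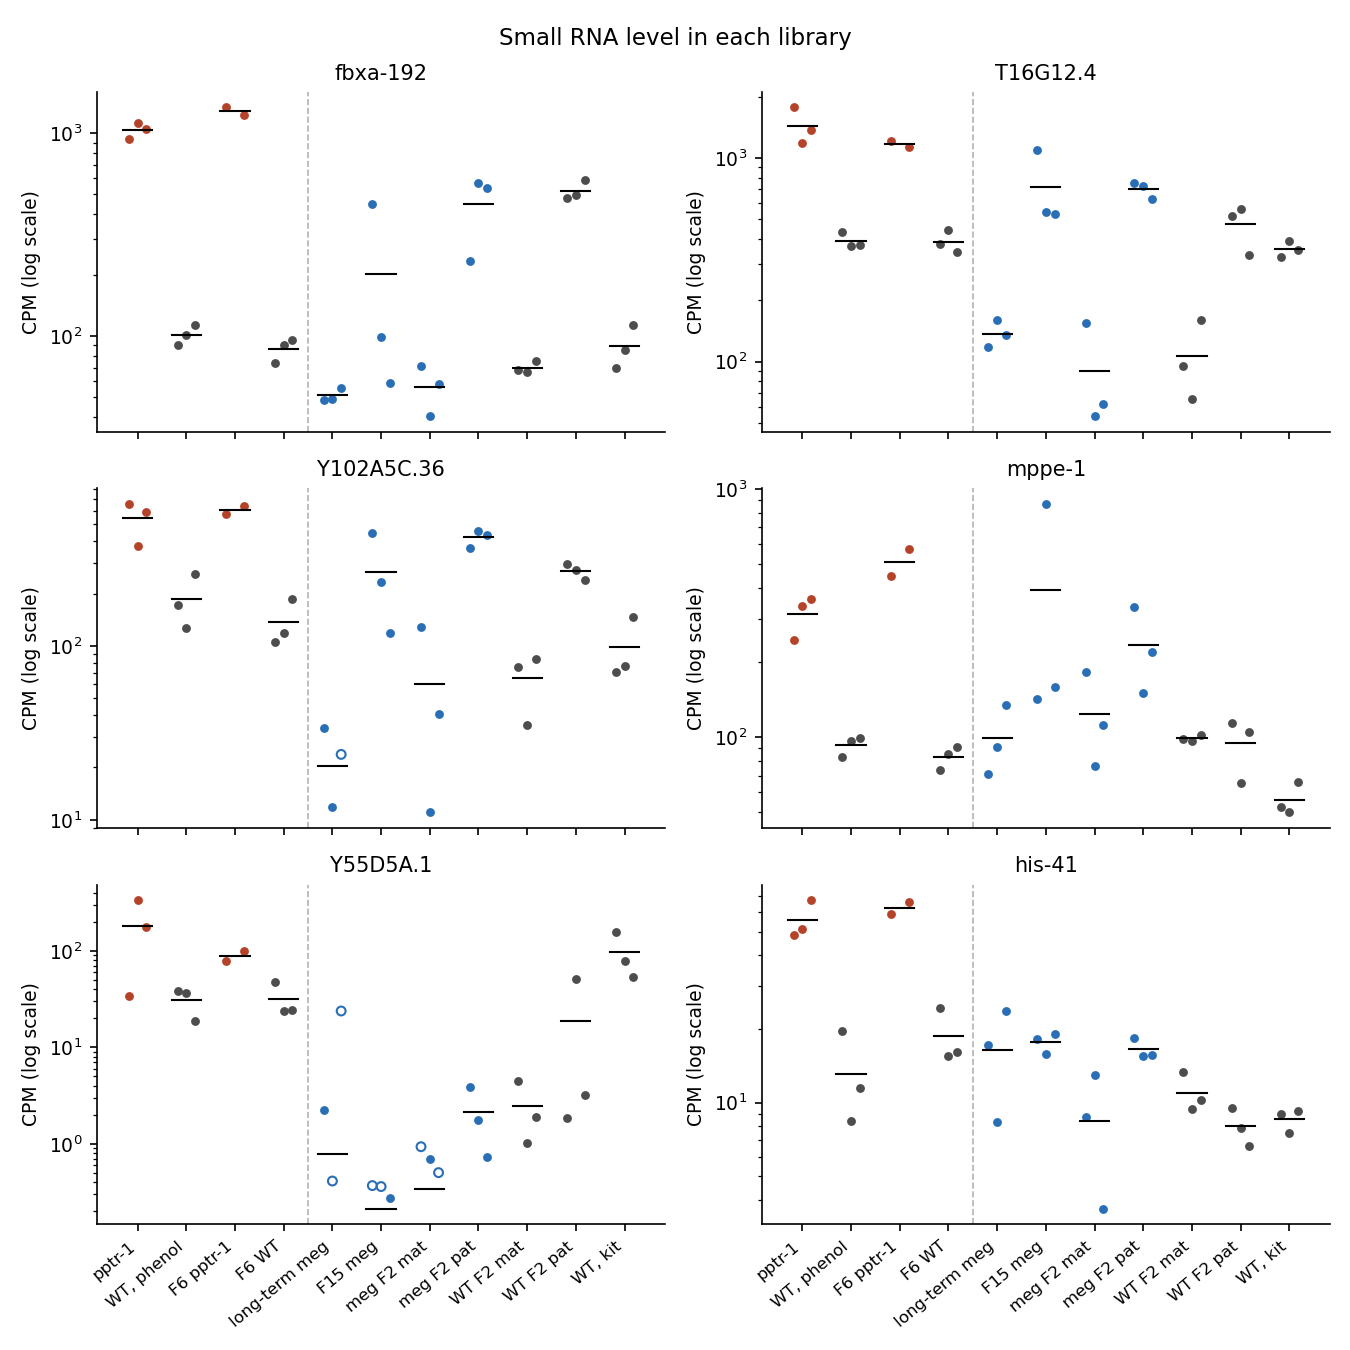
Small RNA level (CPM, log scale) of 6 genes in each library, phenol groups left and kit groups right of the dashed line; red is pptr-1, blue meg, grey wild type (mat and pat are the maternal and paternal cross), bars are means, and open circles are libraries under 3 counts drawn at that level. fbxa-192 is at 40.3 to 75.4 CPM in both maternal-cross F2 groups and at 235 to 589 CPM in both paternal-cross F2 groups.

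The direction of the cross went with lower small RNAs of 5 of the 82 genes, among them T16G12.4, fbxa-192 and Y102A5C.36, in maternal-cross mutants. In meg F2 mutants of the maternal cross, only Y37D8A.25 and mppe-1 averaged at least 2 times wild type, 2 of the 82, where 3.23% of the 6312 did so, and 22 averaged at most 0.5 times, where 25.6% did so. The count at 2 times was 4 without the maternal-cross library of replicate number 3 (3.28% of the 6312) and 5 without the third kit wild-type library (3.87%). Tested between the crosses, 204 features (1.99%) were higher and 315 (3.08%) lower in maternal-cross than in paternal-cross meg F2 mutants. Of the 82 genes, 5 were lower and 0 higher, and 16 had an unadjusted p under 0.05, against 18.6% of all features. The median log2 fold change was -0.21 over the 82 and -0.03 over all features.

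T16G12.4 had 154, 53.9 and 62.1 CPM in maternal-cross and 749, 730 and 628 CPM in paternal-cross meg F2 mutants, a log2 fold change of -2.74 (SE 0.38, edgeR adjusted p = 0.000296). The lowest paternal-cross library was several times the highest maternal-cross library. fbxa-192 had 70.9, 40.3 and 58.1 CPM in maternal-cross and 235, 570 and 535 CPM in paternal-cross mutants, a log2 fold change of -2.72 (SE 0.47, adjusted p = 0.00227). Y102A5C.36 had 129, 11.0 and 40.7 CPM in maternal-cross and 366, 459 and 436 CPM in paternal-cross mutants, a log2 fold change of -2.62 (SE 0.59, adjusted p = 0.0124). These 3 genes are among the 8 with the highest pptr-1 level. Their libraries did not overlap between the crosses, and the share of all features without overlap was not computed. C05D11.13 had 5.28, 6.20 and 7.87 CPM in maternal-cross and 25.7, 21.9 and 146 CPM in paternal-cross mutants, with an adjusted p of 0.0383 (log2 fold change -2.98, SE 0.81, edgeR). rsu-1, a Ras suppressor gene whose exons overlap C34C12.9, had 121, 35.1 and 91.1 CPM in maternal-cross and 613, 405 and 107 CPM in paternal-cross mutants, with an adjusted p of 0.0410 (log2 fold change -1.98, SE 0.55, edgeR). The groups did not overlap for C05D11.13 and overlapped for rsu-1. Over 14 other settings the call was lost in 6 for C05D11.13 (adjusted p up to 0.245), in 6 for rsu-1 (up to 0.210) and in 2 for Y102A5C.36 (up to 0.0717), and in 0 for T16G12.4 and fbxa-192. Without the maternal-cross library of replicate number 4, 2 of the 82 were called, and without that of number 3, 3 were. Under total-count scaling, which shifts the median log2 fold change of all features to -0.29 here, 159 features were higher and 638 lower, and 8 of the 82 were lower.

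**Figure D5:**
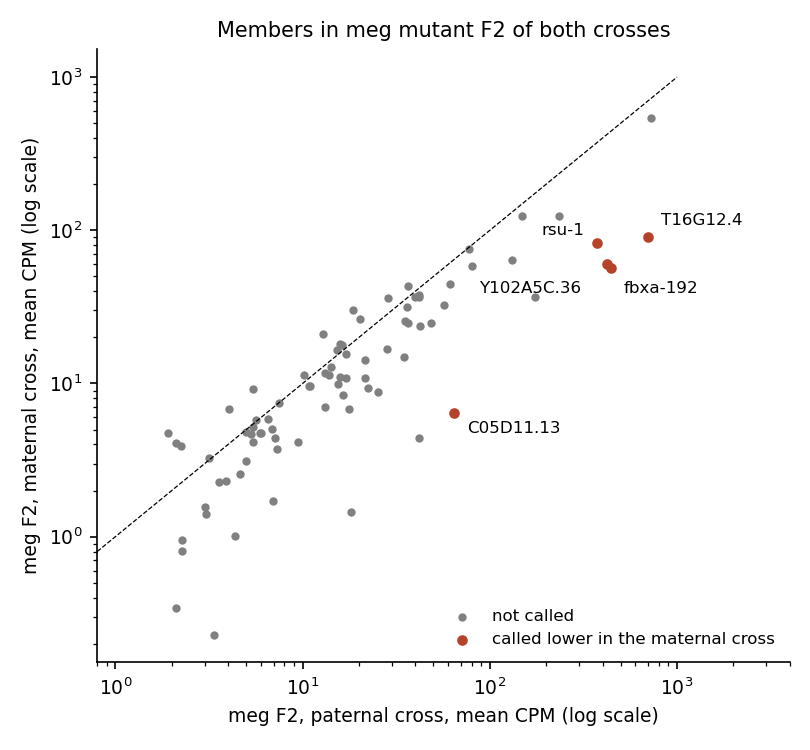
Mean small RNA level (CPM, log scales) of the 82 genes in meg F2 mutants of the paternal cross (x axis) and of the maternal cross (y axis), with a dashed line of equal level. The 5 red points, T16G12.4, fbxa-192, Y102A5C.36, rsu-1 and C05D11.13, were called lower in the maternal cross.

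The wild-type F2 siblings showed the same split in 4 of these 5 genes, though the maternal-cross siblings entered the choice and no test is given. fbxa-192 had 67.8, 66.6 and 75.4 CPM in maternal-cross and 482, 495 and 589 CPM in paternal-cross wild-type F2. T16G12.4 had 94.9, 65.3 and 160 CPM in maternal-cross and 521, 561 and 335 CPM in paternal-cross wild-type F2. Y102A5C.36 had 75.7, 35.3 and 84.2 CPM in maternal-cross and 295, 274 and 240 CPM in paternal-cross wild-type F2. rsu-1 had 140, 121 and 148 CPM in maternal-cross and 496, 282 and 232 CPM in paternal-cross wild-type F2. In these 4 genes each maternal-cross sibling library was below each paternal-cross one. The share of other genes with such a split was not computed, so whether these genes stand out in it is not known. The choice also kept the maternal-cross siblings under 2 times wild type, which favours low values in that group. C05D11.13 overlapped, at 31.1, 24.7 and 35.8 CPM in maternal-cross and 11.6, 19.5 and 79.3 CPM in paternal-cross wild-type F2. Vitellogenin small RNAs summed to 8.04 to 33.9 CPM in maternal-cross and 7.29 to 16.4 CPM in paternal-cross meg F2 mutants, and sperm protein small RNAs to 5.68 to 25.8 CPM in maternal-cross and 1.17 to 13.0 CPM in paternal-cross mutants. Both sums overlapped between the crosses. Their part in the cross difference was not tested.

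From F2 to F15 after the paternal cross, 17 features (0.166%) were higher and 76 (0.743%) lower. Of the 82 genes, 0 were called by edgeR and 0 by DESeq2 in F15 against F2 mutants, and 12 had an unadjusted p under 0.05, against 10.2% of all features. The median log2 fold change was -0.22 over the 82 and -0.02 over all features. fbxa-192 had 447, 99.1 and 58.5 CPM in F15 and 235, 570 and 535 CPM in F2 mutants, with the first F15 library within the range of the F2. T16G12.4 had 1091, 543 and 528 CPM in F15 and 749, 730 and 628 CPM in F2 mutants. These 3 tests share the paternal-cross F2 mutants.

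The wild types of both extractions had most of these genes at a like level, though a smaller share than of the 6312. Kit wild type was within 2 times phenol wild type for 72 of the 82, where 97.3% of the 6312 were, and the median ratio was 0.970 against 1.07 over all. Kit wild type was over 2 times phenol wild type for 5 genes, where 0.792% were, and under 0.5 times for 5, where 1.90% were. Y55D5A.1 had the highest such ratio, 3.12, so its kit wild-type level of 54.1 to 158 CPM was within the range of untreated pptr-1 gonads. The next were cls-3 (3.05), vit-6 (2.93), Y60A3A.16 (2.63), fbxa-111 (2.27) and C07A9.13 (2.00). For 34 of the 82, every untreated pptr-1 library lay above every kit library other than the shallow one, where 4.59% of the 6312 did so. Both wild types and untreated pptr-1 gonads entered the choice of the genes, which can move all counts of this paragraph. They are a description with no test.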

How the data were processed

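The files hold whole-number counts of small RNA reads per gene row, 1 list per library, as deposited by the authors without normalization. Per the submitters' processing notes, cutadapt, FastQC, HTSeq, DESeq2 and the build ce11 were used; the aligner and the treatment of multiply aligned reads and of strand are not given in the sources used here, so paralogs, overlapping and antisense genes are uncertain. CPM were computed over all gene rows (tally rows left out). Of 46779 rows, 46603 matched Ensembl release 115 (WBcel235) and 175 did not, holding 0.0635% of counts. The genes and lists described here were chosen with earlier results of these data known.

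Tests used edgeR 4.0.16 in R 4.3.3 (quasi-likelihood F test, two-sided, TMM, Benjamini-Hochberg over all features). The SE beside an edgeR log2 fold change was back-calculated, as its size divided by the square root of the F statistic. A feature entered with 10 or more counts in 3 or more libraries of its extraction, which kept 10230 kit and 10873 phenol features, all 82 genes included. Groups of an extraction were fitted together without a replicate block. The phenol tests serve only gene lists and overall counts. No test was made against kit wild type for the 82 genes, since it entered their choice. In the paternal F2, samples of the same replicate number correlated in their deviations from the group means (r = 0.192, 0.300 and 0.253, each matching its own number best), so the number was taken as a pairing there. In simulated data of 10230 features, 200 were changed, drawn only from those with higher mean counts. Changes of 4-fold were found for 91.5% (mutant against wild-type F2), 93.5% (F15 against F2) and 91.0% (maternal against paternal) of the 200. Changes of 2-fold were found for 31.5%, 28.5% and 43.5%. These shares do not cover the genes of low count among the 82, such as ift-20 and pept-3. Alternatives were DESeq2 1.42.0, other scalings, no filter, only the 2 groups compared, the replicate block and leaving out each library. No replicate pair agreed within sampling noise (31 pairs, chi-square per degree of freedom 1.70 to 127).

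Named are the 8 genes with the highest untreated pptr-1 level, the 8 with the largest ratio, those next to a threshold, those called, those in a gene list, the 6 highest in kit over phenol wild type, and neighbours. Y73B3A.11, vit-2, E01G4.3, C03D6.1, Y37D8A.25, F33H2.8, osm-1, kin-1, snpc-1.3, dgn-1, rpm-1, unc-83, wdfy-3 and Y54G2A.50, and the members listed as called under the block, were chosen after their values were seen.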

Additional observations from a re-analysis of the deposited data

Results flagged for a closer look

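Results are given here where the effects of 2 groups differed in direction, as values without an explanation. No group had over 3 libraries, so no library was checked as an outlier. Every maternal-cross library of T16G12.4 in meg F2 mutants lay below and every paternal-cross library above kit wild type, the paternal-cross mean was 7.79 times the maternal-cross mean, and the difference between the crosses passed the edgeR test given above. T16G12.4 was 5.25 times higher in F15 than in long-term meg mutants over all 3 long-term libraries, and 5.21 times over libraries 1 and 2, with every F15 library above and every long-term library below wild type, and that difference was not tested. Y54G2A.50 had 52.5, 33.9 and 39.9 CPM in F15 mutants, 12.7, 9.18 and 15.8 CPM in long-term mutants and 20.6, 22.6 and 31.0 CPM in wild type, a ratio of 3.35 between F15 and all 3 long-term libraries and 3.85 with libraries 1 and 2, which was not tested. The third long-term value is under the 23.8 CPM that 3 counts equal in that library. osm-1 had 2.80, 6.20 and 3.52 CPM in maternal-cross and 9.15, 8.75 and 10.6 CPM in paternal-cross meg F2 mutants, a paternal-cross mean 2.28 times the maternal-cross mean, and was not called in the test of the crosses.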

How the results depend on the processing

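The choice of the 82 genes depended on its settings: 51 met it with TMM-scaled CPM, 17 at 3 times in both pptr-1 comparisons, 216 at 1.5 times, and 70 to 103 with 1 library left out. Without a filter on low counts, 750 features were called in the paternal F2, 247 higher and 503 lower in mutants (7 and 6 of the 82). Between F15 and F2, 546 were called, 185 higher and 361 lower (3 and 6 of the 82). Between the crosses, 1250 were called, 529 higher and 721 lower (1 and 14 of the 82). The calls were 1377 in untreated and 1688 in F6 pptr-1. Shares of the features tested without the filter are not given here. With the replicate block the counts of features were 652 (6 of the 82 higher and 2 lower), 19 (0 and 0), 332 (0 and 7), 1176 and 1527. The 332 for the crosses were 114 higher and 218 lower. Apart from the paternal F2, same-numbered libraries did not correlate by over 0.1 in every pair or shared fewer than 3 numbers. The number was not taken as a pairing there. Untreated pptr-1 and wild type shared 2 numbers, with r = 0.274 and 0.346, each matching its own number best. A pairing of these libraries is therefore possible. The untreated calls of the gene lists come from the fit without the block, which called 705 features. With only the 2 groups compared, 249 features were called in the paternal F2 (0 of the 82 higher and 1 lower) and 11 for F15 (0 and 0). For the crosses 337 were called, 125 higher and 212 lower (0 and 4 of the 82). DESeq2 called 188 for F15, 1061 untreated and 1285 in F6. Total-count scaling gave 797 for the crosses, with 8 of the 82 lower, and in F6 pptr-1 moved the median of all features to 0.16 and the calls to 680 higher and 356 lower. With 1 library left out, calls ran from 116 to 202 in the paternal F2 (0 to 0 of the 82 in both directions), 41 to 93 for F15 (0 to 1 lower), 223 to 522 for the crosses (2 to 5 lower), 425 to 615 untreated and 186 to 618 in F6. A lone remaining library was assumed to vary like the other groups. The cause of these shifts was not tested. Depth limits low genes: 3 counts equal 0.202 to 1.12 CPM in kit libraries, and 23.8 CPM in the third long-term library.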
